A study of Mus musculus with 12 samples.

Results

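Isolated CpG pairs are pairs of neighbouring CpG sites that lie 2 to 40 bp apart, counted from the C of the first to the C of the second, with no further CpG within 100 bp on either side. They were chosen by position alone, on the autosomes of mouse genome build mm10 (GRCm38). The rule gave 724312 pairs, which hold 1448624 of the 20383623 autosomal CpGs. Each exact spacing held between 15054 and 24460 pairs, with the most at 10 bp. Methylation was measured by enhanced reduced representation bisulfite sequencing (eRRBS), in which the enzymes MspI, BfaI and MseI cut the genome and unmethylated cytosine is converted with bisulfite. At each CpG the reads that kept a methylated C were counted among all reads. All 12 libraries came from mouse embryonic stem cells lacking Dnmt1, Dnmt3a and Dnmt3b (triple knockout, TKO) that were transfected with the vector pPyCAGIZ carrying a human enzyme. By the labels they were selected in 50 µg/ml Zeocin for 10 days and kept in 25 µg/ml Zeocin, whereas the study's methods give more than 2 weeks of selection. There were 6 groups of 2 lines each. They were wild-type (WT) DNMT3A, WT DNMT3B set a and its companion DNMT3B N656I, and WT DNMT3B set b with its companions DNMT3B K777A and DNMT3B N779A. Each group is described by 2 stably transfected lines only, and whether a line was a pool of cells or a clone is not given for these libraries in the sources used here. The labels call the lines of a group biological replicates, and the study's methods describe them as derived independently, so p-values measure the spread between such lines. All lines drew on the same set of CpGs, so p-values carry no spread between loci. No empty-vector library was analysed here, so that levels were compared between groups, between lines and between CpGs. Neither the expressed enzyme nor stem cell markers can be read from CpG counts.

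DNMT3A and DNMT3B are the de novo DNA methyltransferases, which write methylation on unmodified CpGs, whereas DNMT1 copies existing methylation onto the new strand after replication. In TKO cells that copying is missing, so the marks on a CpG pair have to be placed by the introduced enzyme. Both enzymes assemble with the helper protein DNMT3L, or with further DNMT3 subunits, into an elongated complex whose central dimer carries a pair of active sites. Both also read the bases that flank a CpG as well as the CpG itself. A spacing of 14 bp has a special place here because, in crystal structures of this complex on DNA, the central dimer holds CpGs 14 bp apart, with 1 CpG in each active site. N656I changes the catalytic loop of DNMT3B, and K777A and N779A change residues of its target recognition domain, which contacts the DNA around the CpG.

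A pair at each of 3 spacings shows what the members look like. They were taken by a rule on read depth across lines and printed from the plus strand of GRCm38, with the CpGs in capitals and 5 bases added on each side. They are shown because the contrast between short, 10 bp and 14 bp spacing carries the results below.
Spacing 3 bp, chr8:85844112-85844116: ttcatCGaCGtggta
Spacing 10 bp, chr1:172195118-172195129: ttgccCGagcaaccaCGtccca
Spacing 14 bp, chr6:97185373-97185388: tggttCGttcttcaatagaCGttact
The first lies in an intron of Phkb, a regulatory subunit of phosphorylase kinase. The second lies in an exon of Dcaf8, a substrate receptor of a cullin ubiquitin ligase, in sequence annotated as untranslated in at least 1 transcript. The third lies in an exon of Uba3, the catalytic subunit of the NEDD8-activating enzyme, on a gene read from the opposite strand. At the Phkb pair in DNMT3A replicate 1, 5 of 6 reads were methylated at the first CpG and 0 of 6 at the second, while in DNMT3A replicate 2 the counts were 1 of 7 and 2 of 7. At the Uba3 pair DNMT3A replicate 1 had 9 of 14 methylated reads at the first CpG (64.3%, 95% Wilson interval 38.8% to 83.7%) and 6 of 14 at the second. DNMT3A replicate 2 had 0 of 7 at both. At the Dcaf8 pair WT DNMT3B set b replicate 1 had 7 of 7 and 7 of 8, whereas both WT DNMT3B set a lines had no methylated read at either CpG, out of 8 and 22 reads. Single pairs thus differed widely between lines of the same enzyme, and the results below are sums over all pairs of a spacing. Intervals cover counting error only, since reads without molecular identifiers need not be independent molecules.

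Between 1126940 and 2393147 reads fell on the pairs in each line. Between 13.97% and 46.8% of the pairs had reads on both CpGs in 11 lines. WT DNMT3B set a replicate 2 stands apart with 3.49% of the pairs covered, 25295 pairs, and a median of 17 reads per CpG where both CpGs had at least 5 reads, against 6 or 7 in the other lines. Results that turn on it are given with and without it. At a single spacing a line had at least 23068 reads, and the 95% Wilson half-width of its level was at most 0.529 percentage points. Of the pairs, 11.6% had a CpG in an MspI site, 16.3% were repeat-masked at both CpGs against 26.98% of isolated single CpGs, and 6.24% shared their sequence with another pair. Shared sequence was most frequent at 10 bp (17.7%) and 3 bp (16.2%).

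Paired CpGs were more methylated than isolated single CpGs, those with no other CpG within 100 bp, in all 12 lines. WT DNMT3A methylated 42.8% ± 0.18 (SD, n = 2) of reads at paired CpGs and 39.1% ± 0.17 at the 3352991 single CpGs, a difference of 3.71 and 3.69 percentage points in the 2 lines. WT DNMT3B reached 18.8% ± 1.31 against 16.8% ± 1.44 in set a and 15.8% ± 1.07 against 13.8% ± 0.72 in set b. DNMT3B N656I reached 15.2% ± 2.82 against 13.5% ± 2.49, DNMT3B N779A 14.2% ± 1.45 against 12.9% ± 1.33, and DNMT3B K777A 8.70% ± 0.81 against 7.96% ± 0.65. In N656I, K777A and N779A the lines of a group lay further apart than paired and single CpGs did, but within each line the paired CpGs were higher, by 1.95 and 1.48 percentage points in N656I and by 1.18 and 1.35 in N779A. The difference in points was largest in DNMT3A and smallest in K777A (0.62 and 0.85 points).

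The bases around a CpG set much of its methylation with these enzymes, so each paired CpG was compared with single CpGs carrying the same 3 bases on either side in the same line. The ratio of the observed to this expected level is given on the log2 scale and exists for spacings of 4 to 40 bp, since at 2 and 3 bp the partner lies within those bases. Over these 687845 pairs the log2 ratio averaged 0.16 ± 0.028 (SD over 12 lines), a 1.118-fold level, with values from 0.12 to 0.21. It was above 0 in 12 of 12 lines (two-sided exact sign-flip permutation test over lines, p = 0.000488, the smallest this test can give). The 2 DNMT3A lines had the lowest ratios (0.12 and 0.12), although their difference in points was the largest. WT DNMT3B lines lay at 0.15 and 0.19 in set a and 0.21 and 0.18 in set b. N656I lay at 0.15 and 0.15, K777A at 0.17 and 0.20, and N779A at 0.15 and 0.14. The order of the groups was not tested. The low place of DNMT3A in it depends on the scale, since a log2 ratio of levels comes out smaller at a high level than odds do.

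Of the pairs, 49.4% lay between genes, 45.7% in introns and 4.97% in exons, and 3.30% lay within 1000 bp of a gene start. Of the single CpGs, 54.1% lay between genes, 42.3% in introns and 3.61% in exons, and 2.87% lay within 1000 bp of a gene start. Of the autosomal CpGs that are neither paired nor single in this sense, 11.2% lay that near a gene start. Compared with single CpGs in the same kind of location, the log2 ratio was 0.18 ± 0.029 between genes, 0.13 ± 0.027 in introns and 0.13 ± 0.029 in exons (SD over 12 lines), above 0 in 12 of 12 lines in each. Within a line, the ratio between genes was above that in introns in 12 of 12 lines (mean difference 0.043 ± 0.013) and above that in exons in 12 of 12 (0.048 ± 0.029), while introns stood above exons in 6 of 12 (0.0054 ± 0.026). This order depends on the reference. Against all single CpGs the ratio between genes was the lowest of the 3 in each line. DNMT3A then had 0.058 and 0.054 between genes, 0.17 and 0.17 in introns and 0.18 and 0.17 in exons. Its raw levels were 40.8% between genes, 44.4% in introns and 44.8% in exons. Repeat-masked pairs were compared with all single CpGs, masked or not. Where both CpGs were repeat-masked (117814 pairs) DNMT3A had log2 ratios of 0.046 and 0.037, against 0.13 and 0.13 where neither was (520819 pairs). In K777A the values were 0.11 and 0.10 against 0.18 and 0.22. Masked pairs were not set against masked single CpGs alone, so these values do not separate pairing from the level of masked sequence.

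The level of the pair differed between spacings when flanking bases were not taken into account. In raw percentages the curves of the DNMT3B groups began with their lowest value at 2 bp, except K777A, and peaked at 5 or 7 bp. WT DNMT3B set a stood at 13.6% and 11.1% at 2 bp, 21.6% and 20.2% at 7 bp, 20.03% and 18.1% at 10 bp and 18.9% and 19.5% at 40 bp. WT DNMT3B set b stood at 11.7% and 10.6% at 2 bp, 18.2% and 16.3% at 7 bp, 16.9% and 14.8% at 10 bp and 16.6% and 14.1% at 40 bp. N656I had 10.3% and 8.43% at 2 bp and 19.7% and 15.5% at 7 bp. N779A had 9.76% and 10.9% at 2 bp and 15.2% and 16.7% at 7 bp. The 2 bp and 7 bp values did not overlap in any of these 4 groups. In percentage points K777A, the group with the lowest mean level, varied least, with 7.69% and 8.55% at 2 bp, 9.09% and 10.1% at 7 bp and 7.58% and 8.66% at 40 bp. DNMT3A had its highest level at 4 bp (48.2% and 48.1%) and its lowest at 3 bp (41.3% and 40.5%). It had 41.1% and 43.6% at 2 bp, 42.3% and 41.2% at 10 bp and 41.5% and 40.9% at 40 bp. Against single CpGs with the same base on each side, the comparison that is possible for CGCG, all 10 DNMT3B lines lay above 0 at 2 bp. The log2 ratio was 0.21 and 0.058 in WT set a, 0.33 and 0.28 in WT set b and 0.45 and 0.60 in N656I. It was 0.11 and 0.12 in K777A, 0.23 and 0.19 in N779A, and -0.075 and 0.012 in DNMT3A.

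**Figure D1:**
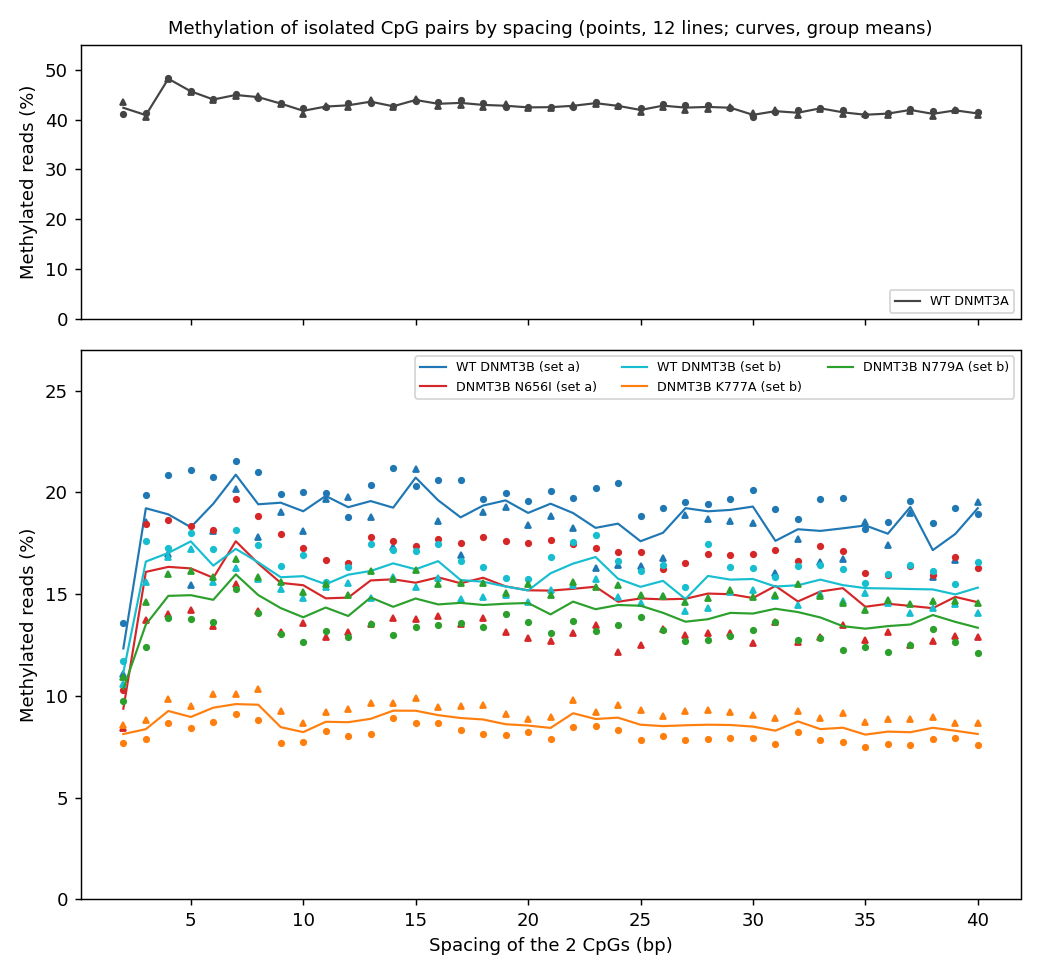
Percentage of methylated reads at the CpGs of isolated pairs (vertical axis) by the spacing of the CpGs in bp (horizontal axis), with DNMT3A above and the 5 DNMT3B groups below; circles are replicate 1, triangles replicate 2 and curves the mean of the 2 lines. DNMT3A runs between 40.9% and 48.2% and peaks at 4 bp, while 4 of the DNMT3B groups start at 2 bp with their lowest level.

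With flanking bases taken into account, the ratio fell with spacing and rose and fell again on the way. Averaged over 12 lines, the log2 ratio was highest at 7 bp (0.27 ± 0.062, lowest line 0.18, median 0.27, highest 0.37) and lowest at 35 bp (0.072 ± 0.053, lowest line 0.0089, median 0.065, highest 0.20). Between 4 and 8 bp it stayed at or above 0.22 and then dropped to 0.14 ± 0.043 at 10 bp (lowest line 0.073, median 0.14, highest 0.23). It rose to 0.23 ± 0.085 at 15 bp (lowest 0.15, median 0.23, highest 0.47), and was then 0.13 ± 0.035 at 20 bp and 0.19 ± 0.051 at 22 bp. The 15 bp value of 0.47 belonged to WT DNMT3B set a replicate 2. The ratio at 10 bp was below that at 7 bp in 12 of 12 lines (mean difference -0.13 ± 0.067) and below that at 15 bp in 12 of 12 lines (-0.092 ± 0.070). The ratio at 20 bp was below that at 15 bp in 11 of 12 lines (-0.10 ± 0.075) and below that at 22 bp in 12 of 12 (-0.057 ± 0.056). These 4 contrasts were picked after the curve had been seen and are given without a test. The dip at 10 bp was about as large without the shared sequences frequent at that spacing: 10 bp was then below 7 bp in 12 of 12 lines (-0.12 ± 0.064), and outside repeat-masked sequence in 11 of 12 (-0.12 ± 0.083). It was less even under other choices. With pairs isolated by 200 bp, 10 bp was below 15 bp in 7 of 12 lines (-0.085 ± 0.16), and with the mean of CpGs of at least 5 reads in 10 of 12 (-0.049 ± 0.057). With at least 10 reads it was below 7 bp in 10 of 12 lines, with a wide spread (-0.034 ± 0.48).

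Each spacing was then tested against the median spacing of its line, averaged over the 6 groups, in 1 limma fit over 37 spacings and 12 lines with Benjamini-Hochberg adjustment. At an adjusted p below 0.05, 22 spacings differed (59.5% of those tested), 10 higher (27% of those tested) and 12 lower (32.4%), and 24 had an unadjusted p below 0.05. The higher spacings were 4 to 8, 13 to 16 and 22 bp, and the lower ones 25, 26 and 31 to 40 bp. The largest differences were at 7 bp (0.12 ± 0.009 SE, limma adjusted p = 8.8e-09), 15 bp (0.081 ± 0.016 SE, limma adjusted p = 0.00037) and 35 bp (-0.081 ± 0.014 SE, limma adjusted p = 0.00027). All lines drew on the same pairs at a spacing, so these SE and p measure agreement between lines and no spread between loci. The 15 bp value includes 0.47 in WT DNMT3B set a replicate 2. By the median over lines, the log2 ratio was 0.23 at 15 bp and also 0.23 at 4, 5, 6 and 8 bp. When each line's straight line over spacing was first removed, an alternative added after the curve had been seen, 5 spacings were past the threshold (13.5%). These were 7 bp (0.059), 15 bp (0.051) and 22 bp (0.033) above, 8.11% of those tested, and 10 bp (-0.061) and 11 bp (-0.050) below, 5.41%. The last 2 had not passed before the straight line was removed. The number of calls also moved by more than 1.5 times under 2 other choices: with pairs isolated by 200 bp 7 spacings passed, all higher, and with only CpGs of at least 10 reads none did. By group, the highest ratio was at 7 bp in N656I (0.28), K777A (0.37) and N779A (0.29). It was at 5 bp in DNMT3A (0.20) and WT DNMT3B set b (0.34), and at 15 bp in WT DNMT3B set a (0.34). The lowest was at 35 bp in N656I (0.042), K777A (0.067) and N779A (0.039). It was at 40 bp in DNMT3A (0.056), at 27 bp in WT DNMT3B set b (0.096) and at 25 bp in WT DNMT3B set a (0.025). Both extremes of WT DNMT3B set a turn on its replicate 2 (0.47 at 15 bp), since replicate 1 alone was highest at 5 bp (0.25), with 0.20 at 15 bp, and lowest at 35 bp (0.0089).

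**Figure D2:**
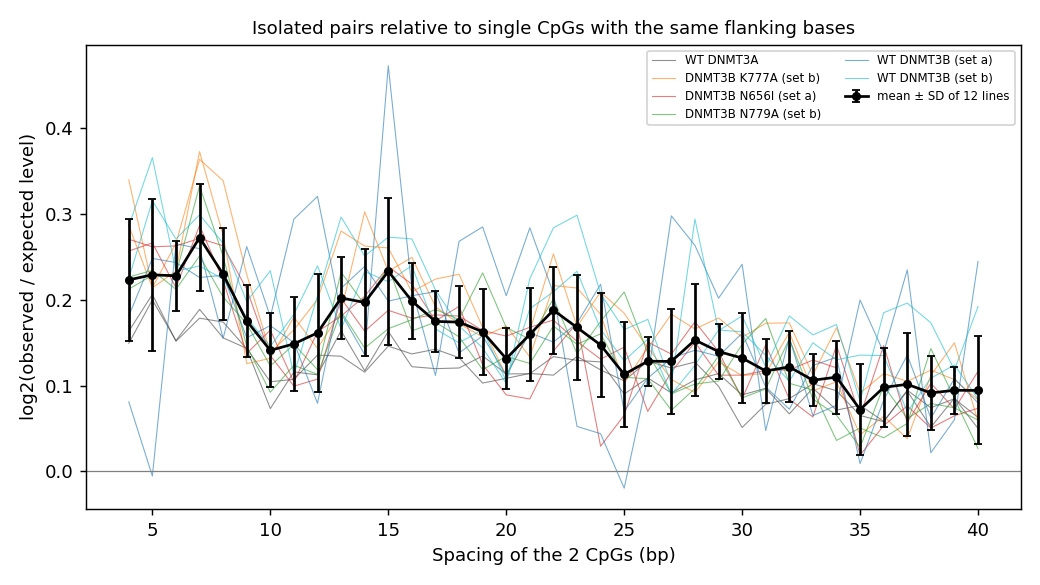
log2 ratio of the observed level of isolated pairs to the level of single CpGs with the same 3 flanking bases on each side (vertical axis) by spacing in bp (horizontal axis); thin curves are the 12 lines coloured by group, black points the mean and bars the SD over 12 lines. The mean is highest at 7 bp (0.27), dips at 10 bp (0.14), rises at 15 bp (0.23) and 22 bp (0.19) and ends at 0.094 at 40 bp.

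Beyond the 40 bp limit the ratio went on falling. In bins of spacing the mean over 12 lines was 0.24 ± 0.048 at 4 to 8 bp, 0.16 ± 0.043 at 9 to 12 bp, 0.20 ± 0.040 at 13 to 17 bp, 0.16 ± 0.037 at 18 to 22 bp, 0.14 ± 0.028 at 23 to 30 bp and 0.10 ± 0.025 at 31 to 40 bp. In each bin it was above 0 in 12 of 12 lines. The 750058 pairs 41 to 100 bp apart with the same isolation gave 0.041 ± 0.013 at 41 to 60 bp, above 0 in 12 of 12 lines. They gave -0.012 ± 0.017 at 61 to 80 bp, above 0 in 1 of 12, and -0.047 ± 0.014 at 81 to 100 bp, above 0 in 0 of 12. The line above 0 at 61 to 80 bp was WT DNMT3B set a replicate 2 (0.033). A partner CpG thus went with a higher level than in single CpGs up to 60 bp and with a lower one at 81 to 100 bp. The level was 1.18-fold the expected level at 4 to 8 bp and 0.968-fold at 81 to 100 bp. Among the groups at 4 to 8 bp, K777A was highest (0.29 ± 0.020) and DNMT3A lowest (0.17 ± 0.0043, both SD, n = 2). On a log2 ratio of levels a difference at the high level of DNMT3A comes out smaller than on odds. The place of DNMT3A in this order therefore depends on the scale. In replicate 1 the observed and expected levels were 45.5% and 40.5% in DNMT3A and 8.75% and 7.22% in K777A.

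**Figure D3:**
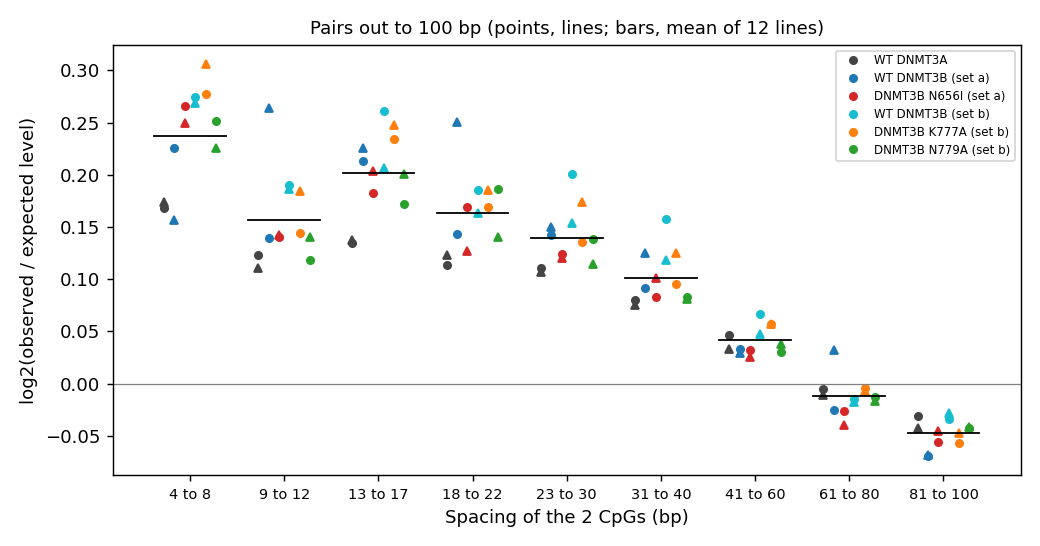
log2 ratio of observed to expected level (vertical axis) in 9 bins of spacing in bp (horizontal axis); points are lines coloured by group, circles replicate 1 and triangles replicate 2, and bars the mean of 12 lines. All 12 lines are above 0 up to 41 to 60 bp and below 0 at 81 to 100 bp.

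The spacing of 14 bp did not differ from its neighbours beyond the spread between lines. Its log2 ratio minus the mean of those at 10 to 13 and 15 to 18 bp averaged 0.018 ± 0.057 (SD, 12 lines), a 1.01-fold level, and was above 0 in 8 of 12 lines (two-sided exact sign-flip permutation test, p = 0.31). The values were -0.014 and -0.0065 in DNMT3A, 0.069 and -0.12 in WT DNMT3B set a, and 0.0043 and 0.024 in N656I. They were 0.029 and 0.044 in WT DNMT3B set b, 0.12 and 0.049 in K777A, and -0.0093 and 0.025 in N779A. The lowest value came from WT DNMT3B set a replicate 2, and without it the mean was 0.030, above 0 in 8 of 11 lines (exact p = 0.020). With pairs isolated by 200 bp the mean was 0.063 (exact p = 0.0054). The neighbours in this contrast include the dip, with mean log2 ratios over 12 lines of 0.14, 0.15 and 0.16 at 10, 11 and 12 bp. At 13, 14, 15 and 16 bp the means were 0.20, 0.20, 0.23 and 0.20, so 14 bp did not stand above the spacings next to it. The raw level at 14 bp was 42.7% and 42.6% in DNMT3A, 21.2% and 17.3% in WT DNMT3B set a, 17.2% and 15.8% in WT DNMT3B set b. It was 17.6% and 13.8% in N656I, 8.90% and 9.64% in K777A, and 12.99% and 15.8% in N779A.

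The enzymes were compared spacing by spacing in the same kind of fit, on log2 odds of methylation after each line was centred on its median spacing, so that only the shape over spacing was compared. Against WT DNMT3B set a, DNMT3A was relatively higher at 2 of 39 spacings (5.13% of those tested, both higher): 2 bp, by 0.73 ± 0.088 (SE, limma adjusted p = 1.4e-05), and 4 bp, by 0.34 ± 0.061 (SE, limma adjusted p = 0.00083). Against WT DNMT3B set b, K777A was relatively higher at 2 bp, by 0.48 ± 0.088 (SE, limma adjusted p = 0.0023), 1 of 39 spacings (2.56% of those tested). N779A was relatively lower at 3 bp, by -0.17 ± 0.042 (SE, limma adjusted p = 0.030), again 1 of 39 (2.56%). N656I against WT DNMT3B set a had 0 of 39 (0%, with 5 at an unadjusted p below 0.05 in limma), and the 2 WT DNMT3B sets against each other also had 0 (0%, with 5 at an unadjusted p below 0.05). At 2 bp the order was the other way round against single CpGs with the same base on each side, where DNMT3A (-0.075 and 0.012) lay below WT set a (0.21 and 0.058) and K777A (0.11 and 0.12) below WT set b (0.33 and 0.28). The comparisons of DNMT3A and N656I share the WT set a lines, and those of K777A and N779A the WT set b lines.

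Every called spacing was 4 bp or shorter. When the level expected from flanking bases was taken out, which gives no value at 2 and 3 bp and so bears only on the 4 bp call of DNMT3A, the fit also moved from log2 odds to the log2 ratio of levels. On that scale a difference at the high level of DNMT3A comes out smaller, so the value at 4 bp (0.086 ± 0.046 SE, limma adjusted p = 0.37) is not comparable in size with that on log2 odds, and the parts of flanks and scale were not told apart. In this fit no spacing passed the threshold in any of the 5 comparisons in limma, with 5, 7, 1, 1 and 6 of 37 at an unadjusted p below 0.05 for DNMT3A, N656I, K777A, N779A and the WT sets. The smallest adjusted p among them was 0.056 in limma, for K777A at 7 bp, 0.12 ± 0.031 (SE) above WT DNMT3B set b. Without WT DNMT3B set a replicate 1, which leaves replicate 2 alone in its group, limma called 22 spacings for DNMT3A, 16 for N656I and 21 between the WT sets, so that these counts turn on that line. Both calls of DNMT3A were lost in a fit of only its 4 lines (limma adjusted p = 0.071 at 2 bp and 0.12 at 4 bp). Without WT DNMT3B set a replicate 2, whose spread enters every comparison of the fit, DNMT3A had the same 2 calls. K777A then had 3 calls, higher at 2 bp and lower at 3 and 5 bp, and N779A 3, lower at 3, 5 and 23 bp, while N656I and the WT sets had 0, with 2 and 1 at an unadjusted p below 0.05 in limma. The call of K777A at 2 bp was lost without CCGG pairs (0.31 ± 0.088 SE, limma adjusted p = 0.066), where its only call was 3 bp, lower by -0.19. No pair at 2 bp holds CCGG, so that value moved through the median spacing on which lines were centred. No spacing passed without WT set b replicate 1, WT set b replicate 2 or K777A replicate 1. The call of N779A at 3 bp was lost with at least 5 or 10 reads, without CCGG pairs, with an isolation of 200 bp and with all 4 WT DNMT3B lines as control. It was also lost without either WT set b line or either N779A line, with differences of -0.15 to -0.20. Without either K777A line or either DNMT3A line the difference stayed at -0.17, since those lines enter only the spread, and the limma adjusted p was 0.055 to 0.073.

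At 2 bp the pair is the palindrome CGCG, and at 3 bp it is CGACG or CGCCG, read on the strand that gives A or C in the middle (9805 and 10506 pairs). In CGCCG the 2 CpGs are unlike: the first is followed by C and the second preceded by C. The DNMT3B groups differed most at the CpG preceded by C, with 29.0% and 29.7% in WT set a, 34.3% and 26.3% in N656I, and 26.5% and 22.5% in WT set b. There were 16.02% and 18.8% in N779A, and 4.24% and 4.31% in K777A. DNMT3A had 42.8% and 42.1% there. K777A, N779A and WT set b did not overlap with one another at this CpG. At the CpG followed by C the same DNMT3B groups spanned a smaller range in points, from 7.35% in a K777A line to 15.97% in a WT set a line. K777A (7.35% and 8.02%) did not overlap there with WT set b (12.6% and 11.9%) or N779A (10.6% and 13.5%). The other WT set a line had 9.02%. In CGACG, K777A had 10.6% and 12.3% at the CpG preceded by A and 9.17% and 10.4% at the CpG followed by A, and N656I 12.3% and 8.40% against 15.2% and 11.8%.

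Single CpGs with the same 2 flanking bases on each side gave an expected level for these 4 kinds of CpG. At the CpG of CGCCG preceded by C the log2 ratio was 0.55 and 0.52 in K777A, whose single CpGs in that context were at 2.89% and 3.01%. It was 0.24 and 0.38 in WT DNMT3B set a and 0.35 and 0.19 in WT set b. It was 0.23 and 0.16 in N656I, 0.045 and 0.068 in N779A, and -0.037 and -0.067 in DNMT3A. DNMT3A was below 0 in both lines and all DNMT3B groups above 0 in both, but this held only with 2 flanking bases. With 1 base on each side the ratios were 0.11 and 0.094 in DNMT3A and 0.0078 and -0.070 in K777A, which turned the order of these groups. At the CpG of CGCCG followed by C the ratio was 0.39 and 0.53 in N779A, 0.43 and 0.42 in WT set b, 0.36 and 0.37 in K777A and 0.33 and 0.33 in N656I, whereas the 2 lines of WT set a (0.45 and -0.22) and of DNMT3A (0.087 and -0.034) went opposite ways. The CpG of CGACG preceded by A had 0.21 and 0.24 in K777A and -0.074 and -0.20 in N656I, and the CpG followed by A had 0.27 and 0.33 in K777A and 0.082 and 0.11 in N656I. At the CpG preceded by C in CGCCG the mean of K777A was 0.54 with all pairs and 0.58 without those of shared sequence, and that of N779A was 0.057 and 0.093. All of these are descriptions of 2 lines per group and were not tested. The single CpGs of the last context were themselves far apart, at 24.5% and 22.8% in WT set a against 2.89% and 3.01% in K777A.

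The methylation of the 2 CpGs of a pair was more alike in near pairs than in far ones, apart from the shortest spacings. Pearson's r between their methylation levels, over pairs with at least 5 reads on both CpGs, is given as a description across pairs, which share a library and mostly the same read fragments. Its mean over spacings of 2 to 10 bp was 0.39 and 0.40 in DNMT3A, 0.25 and 0.24 in WT DNMT3B set a, and 0.21 and 0.23 in WT set b. It was 0.24 and 0.24 in K777A, 0.20 and 0.20 in N779A, and 0.18 and 0.18 in N656I. Over 31 to 40 bp it was 0.27 and 0.28 in DNMT3A, 0.16 and 0.20 in WT set a, and 0.16 and 0.14 in WT set b. It was 0.12 and 0.16 in K777A, 0.15 and 0.17 in N779A, and 0.098 and 0.097 in N656I. The near value was above the far one in 12 of 12 lines, by 0.079 ± 0.033 on average (lowest 0.029, highest 0.13). DNMT3A lines were the highest at both distances and N656I lines the lowest at 2 to 10 bp. The level of methylation also differed between these lines, and its part in the size of r was not tested.

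**Figure D4:**
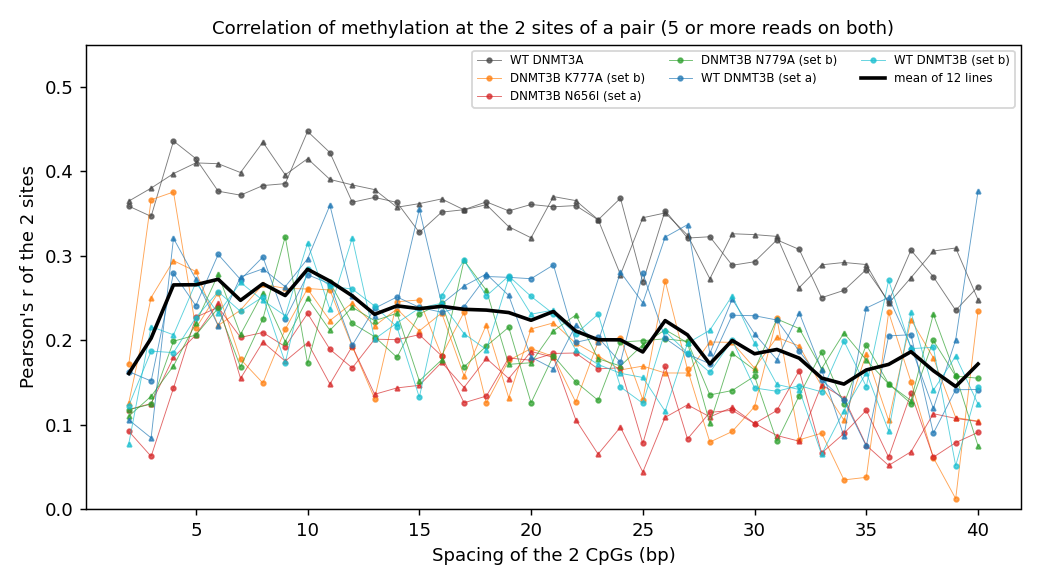
Pearson's r between the methylation of the 2 CpGs of a pair (vertical axis) by spacing in bp (horizontal axis), over pairs with at least 5 reads on both; thin curves are the 12 lines coloured by group, circles replicate 1 and triangles replicate 2, and the black curve is their mean. The DNMT3A lines run above most others, and the mean rises from 0.161 at 2 bp to 0.284 at 10 bp and falls to 0.172 at 40 bp.

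The decline did not begin at the shortest spacing. Averaged over 12 lines, r was 0.161 at 2 bp (lowest 0.078, highest 0.365), 0.202 at 3 bp (0.063 to 0.380), 0.284 at 10 bp (0.173 to 0.447), 0.241 at 14 bp (0.144 to 0.363) and 0.172 at 40 bp (0.075 to 0.376). Each value rests on 265 to 2290 pairs a line. Pairs at 2 bp had a lower r than pairs at 10 bp in 12 of 12 lines, and pairs at 3 bp in 11 of 12. The values at 2 bp were 0.359 and 0.365 in DNMT3A, against 0.447 and 0.415 at 10 bp. They were 0.092 and 0.118 in N656I, against 0.232 and 0.197, and 0.123 and 0.078 in WT set b, against 0.285 and 0.315. At 10 bp, where the level relative to single CpGs dipped, r had the highest mean of all 39 spacings. At 7 bp, where that level was highest, r was lower than at 10 bp in 12 of 12 lines (0.247 against 0.284). These spacings were picked after the curve of r had been seen, and the contrasts are given without a test. The difference between 7 and 10 bp kept its direction in 11 of 12 lines after removal of the level expected from flanks (0.258 against 0.292), without shared sequences (0.248 against 0.279) and outside repeat-masked sequence (0.244 against 0.279).

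In terms of levels, a CpG whose partner, 2 to 10 bp away, had no methylated read was itself at 26.4% and 25.9% in the DNMT3A lines, and at 57.1% and 60.7% where the partner was at 50% or more. At 31 to 40 bp the values were 29.3% and 29.2% against 50.8% and 54.0%. In WT DNMT3B set b the CpG was at 13.05% and 11.7% beside an unmethylated partner and at 31.8% and 30.2% beside one at 50% or more at 2 to 10 bp. In K777A the values were 6.74% and 7.49% against 23.2% and 23.4%, with only 554 and 2361 CpGs in the second class. In N656I they were 13.6% and 10.7% against 26.4% and 24.5%. The ranges of the 2 classes did not overlap in any of these groups.

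With the same isolation, r kept falling at wider spacing, with means over 12 lines of 0.254 at 2 to 10 bp, 0.241 at 11 to 20 bp, 0.203 at 21 to 30 bp, and 0.168 at 31 to 40 bp. They were 0.130 at 41 to 60 bp, 0.096 at 61 to 80 bp, 0.067 at 81 to 100 bp and 0.064 above 100 and up to 200 bp. The share of pairs with the same number of reads on both CpGs, a sign that the same fragments covered both, moved with it, from between 88.7% and 94.4% of pairs at 2 to 10 bp to between 16.4% and 55.6% above 100 bp. The part of shared fragments in the fall of r was not tested.

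To set the pair apart from the DNA molecules of a library, the first CpG was taken from 1 line of a group and the second from the other line. The correlation was then much smaller, between 0.041 in WT DNMT3B set a and 0.120 in DNMT3A at 2 to 10 bp and between 0.0049 in N779A and 0.076 in DNMT3A at 31 to 40 bp. Near pairs were above far pairs in 5 of 6 groups, by 0.038 ± 0.025 on average, with -0.0016 in WT set a. With at least 10 reads on both CpGs the mean difference was -0.033, above 0 in 2 of the 5 groups that gave a value, over as few as 48 pairs in a group, so that the direction does not hold at that depth. Over 5508 pairs at 2 to 10 bp covered in both DNMT3A lines, r was 0.407 for the 2 CpGs within a line, 0.122 for the 2 CpGs between lines and 0.240 for the same CpG between lines. In N656I, over 7190 pairs, the order was different, with 0.184 for the 2 CpGs within a line, 0.072 between lines and 0.297 for the same CpG between lines. Of the 6 groups, N656I was the only one at 2 to 10 bp in which r was higher for the same CpG in the other line than for the neighbouring CpG in the same line. In the other 4 groups the neighbour gave between 0.214 and 0.264 and the same CpG between 0.101 and 0.198.

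**Figure D5:**
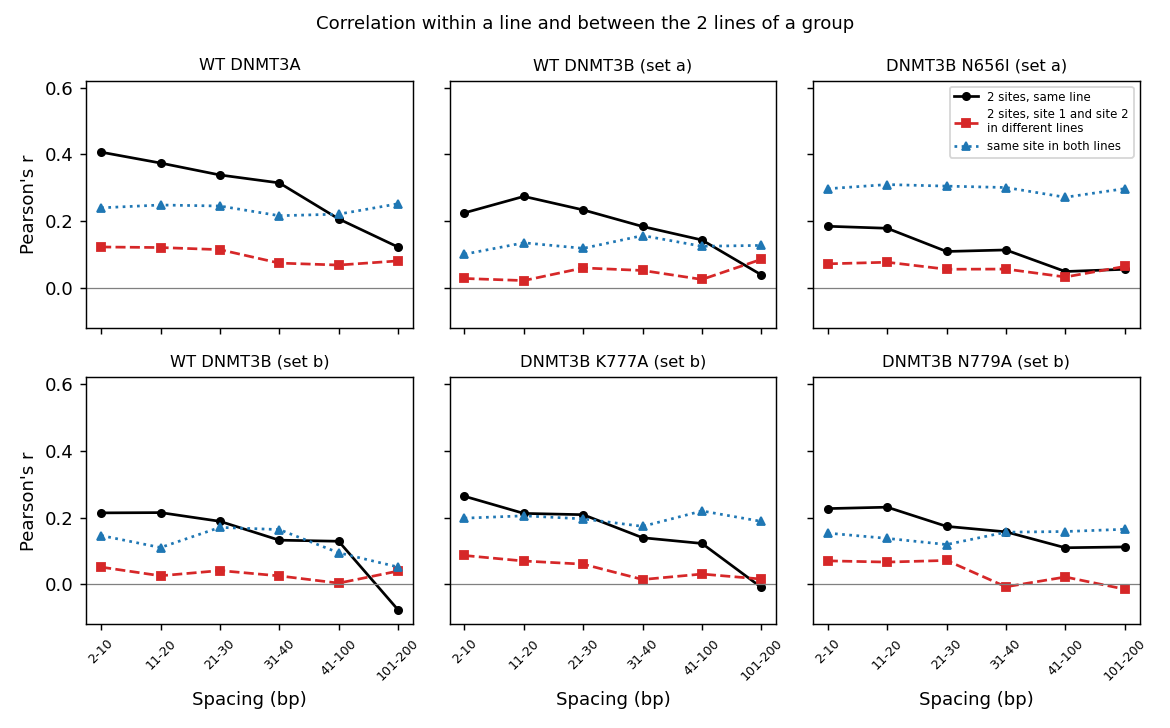
Pearson's r (vertical axis) by bin of spacing in bp (horizontal axis) in the 6 groups, over pairs with at least 5 reads on both CpGs in both lines; black circles are the 2 CpGs in the same line, red squares the first CpG in 1 line and the second in the other, and blue triangles the same CpG in both lines. Within a line r falls from 0.407 at 2 to 10 bp to 0.122 above 100 bp in DNMT3A, but in WT DNMT3B set a it is 0.225 at 2 to 10 bp and 0.274 at 11 to 20 bp, while the same CpG between lines stays near 0.24 in DNMT3A and near 0.30 in N656I.

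The level of a CpG also varied with the flanking bases of its partner. In each line the paired CpGs were divided at the median expected level of the partner, and their own ratio of observed to expected level was compared. With a partner in a favoured context the log2 ratio was higher by 0.044 ± 0.038 at 4 to 10 bp (11 of 12 lines; exact sign-flip test, p = 0.0044, adjusted over 5 bins 0.011), by 0.050 ± 0.035 at 11 to 20 bp (12 of 12 lines; exact p = 0.000488, adjusted 0.0024) and by 0.020 ± 0.028 at 21 to 30 bp (11 of 12 lines; exact p = 0.035, adjusted 0.043). At 31 to 40 bp the difference was 0.0085 ± 0.029 (9 of 12 lines; exact p = 0.33), and at 41 to 100 bp it was -0.014 ± 0.015, above 0 in 3 of 12 lines (exact p = 0.0088, adjusted 0.015). The 1 line below 0 at 4 to 10 bp (-0.055) and at 21 to 30 bp (-0.058) was WT DNMT3B set a replicate 2. Without it the difference was 0.053 and 0.027 in these bins, above 0 in 11 of 11 lines, and 0.0043 at 31 to 40 bp (8 of 11 lines; exact p = 0.60). The bins were chosen after values had been seen.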

How the data were processed

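The authors trimmed reads with cutadapt 1.12 and aligned them to mm10 with Bismark 0.18.1 and Bowtie 1.2 (per the labels), discarded read pairs with several methylated non-CpG cytosines, and deposited, for each CpG and line, the counts of methylated reads and of all reads with both strands merged. The 21867550 CpGs in the table include every autosomal CG of GRCm38. Incomplete conversion would raise levels everywhere in a library and was not measured here. Libraries carry no molecular identifiers.

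Pairs, single CpGs and expected levels (2080 classes of 3 bases on each side, strands merged) were derived with Python 3.11.15, numpy 2.4.6 and pandas 2.3.3. Exact tests used scipy 1.17.1, and fits over spacings used limma 3.58.1 (with trend) in R 4.3.3 on log2 odds with 0.5 added to each count (comparisons of groups) or on log2 ratios of observed to expected level (spacings against the median, and comparisons relative to flanks), all 12 lines in 1 fit, Benjamini-Hochberg threshold 0.05. The fits were also run on simulated data with known changes, the outcome of which is not given here. GENCODE gave locations. The spacings 2, 3, 10, 14 and 40 bp, the extremes of each group and the called spacings were named. The pairs, spacings and comparisons were chosen with earlier results of these data known.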

Additional observations from a re-analysis of the deposited data

Results flagged for a closer look

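At 2 kinds of CpG in pairs 3 bp apart, the departure from single CpGs with the same 2 flanking bases on each side was of opposite sign in both lines of different groups; no test of these differences was made. At the CpG of CGACG preceded by A, N656I lay below 0 in both lines and the other 5 groups above 0, so that the log2 ratio of N656I was exceeded by 0.16 in DNMT3A, 0.22 in WT DNMT3B set a, 0.25 in WT DNMT3B set b, 0.36 in K777A and 0.16 in N779A. Some of these ratios above 0 were small, with 0.0044 in a line of N779A, 0.018 in one of DNMT3A and 0.020 in one of WT DNMT3B set a. With 1 flanking base on each side, N656I had 0.077 and -0.081, on both sides of 0. At the CpG of CGCCG preceded by C, DNMT3A lay below 0 in both lines, and its log2 ratio was exceeded by 0.36 in WT DNMT3B set a, 0.25 in N656I, 0.32 in WT DNMT3B set b, 0.59 in K777A and 0.11 in N779A. With 1 flanking base this sign was not kept: DNMT3A had 0.11 and 0.094, above K777A with 0.0078 and -0.070.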

How the results depend on the processing

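The higher level of pairs than of single CpGs kept its direction and its p under all 9 alternatives (0.15 to 0.17), and leaving out each line gave 0.16 to 0.16 (exact p = 0.00098, the smallest with 11 lines). The 14 bp contrast passed the threshold with an isolation of 200 bp (0.063) and ranged from 0.0087 to 0.030 over lines left out. Against 22 spacings that differed from the median, 5 passed with the straight line removed (10 and 11 bp among them had not passed before), 7 with an isolation of 200 bp and 0 with at least 10 reads (20 to 26 over lines left out). Calls for DNMT3A were 39 without centring (all higher), 0 relative to flanks, 1 with at least 10 reads, 0 in a fit of its 4 lines, and 2 to 22 over lines left out. Calls for K777A were 39 without centring (all lower), 0 relative to flanks, 2 with at least 10 reads, 3 in a fit of its 4 lines, and 0 to 3 over lines left out. Calls for N779A were 0 without centring, relative to flanks, with at least 5 or 10 reads, without CCGG pairs, with an isolation of 200 bp or with all 4 WT DNMT3B lines as control, and 0 to 3 over lines left out. Calls for N656I stayed at 0 under all 12 alternatives and reached 0 to 16 over lines left out. Calls between the WT DNMT3B sets were 1 with at least 5 reads, 2 without very deep sites and 0 to 21 over lines left out. A line left alone in its group is assumed to vary like the others. The near minus far correlation stayed between 0.078 and 0.099 within lines (0.075 to 0.083 over lines left out), and between lines turned to -0.033 with at least 10 reads (0.032 to 0.046 over lines left out). The causes were not tested.

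The replicate number does not pair lines: same-numbered lines correlated between -0.24 and 0.28 over 15 pairs of groups, above 0.1 in 4. The fit with replicate block gave 2, 0, 1, 1 and 0 calls for the 5 comparisons, as without it, and 23 against 22 for the average.

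Few reads per CpG limit what single pairs and the minimum of 10 reads can show.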
